A study of Danio rerio with 8 samples.

Results

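The zebrafish gene f13a1b (ENSDARG00000036893) encodes an A subunit of coagulation factor XIII. It is 1 of the 10479 gene identifiers in the deposited expression table, taken by its identifier after its level in the sorted populations was known. It is described here across all 8 libraries and set beside the genes of the same table whose symbols are F3, F5, F7, F10, SERPINE, PLAU or PLAUR with any paralog ending, of which 5 identifiers are described. The levels of f13a1b in the 2 populations chose the gene, so its difference between them is given as a description, with no test.

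Macrophages were sorted from the hearts of adult Danio rerio aged 6 to 9 months that carried the transgenes wt1b:eGFP and mpeg1:mCherry, 4 days after the ventricle was injured by freezing (cryoinjury). Both populations are from injured hearts of this double transgenic line, and are told apart by fluorescence: 4 libraries are of mpeg1:mCherry single positive cells, without eGFP, and 4 of mpeg1:mCherry/wt1b:eGFP double positive cells. Each library is a pool of cells from 5 to 7 hearts. Libraries 1 and 2 of either population belong to library batch 1, and libraries 4 and 5 to batch 2. Neither uninjured hearts nor other times after injury were analysed here. Because cells were pooled, more cells with a transcript and more transcript per cell cannot be told apart in any value below.

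Factor XIII is the last enzyme of the clotting cascade. It is a transglutaminase precursor, activated by thrombin, that joins fibrin strands by covalent bonds and attaches other proteins such as fibronectin and alpha2-antiplasmin to the clot. In mammals the A subunit, which holds the active site, is made by megakaryocytes and by monocytes and macrophages, where it is also found inside the cell, and the gene is often used as a marker of tissue-repair macrophages. The other genes compared act upstream of it (tissue factor, factors V, VII and X) or on the breakdown of fibrin, where urokinase (PLAU) makes plasmin and serpins of the SERPINE group inhibit proteases of these pathways.

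The deposited values are normalized counts, with column totals of 803220 to 1021901 per library, and read depth is unknown. Whether they were corrected for gene length is not stated, so each gene is compared with itself across libraries and no order of levels between genes is drawn. A library that stands apart is double positive library 1, in which 42.3% of genes have a value under 1, against 10.7% to 19.7% in the other 7. The sort was reflected in wt1b itself, whose values ran from 0.122 to 0.469 without eGFP and from 13.6 to 63.1 with it. Of the 3 identifiers named MPEG1, after the gene whose promoter drives mCherry, ENSDARG00000055290 lay at 302 to 536 in the single positive libraries and at 167 to 452 in the others, ENSDARG00000078569 at no more than 13.5 in any library, and ENSDARG00000043093 is given with the macrophage markers.

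The level of f13a1b was high in every double positive library and low in every single positive one. Single positive libraries 1, 2, 4 and 5 held 72.5, 26.8, 12.02 and 9.61 normalized counts, a mean of 30.2 ± 29.2 (SD, n = 4). Double positive libraries 1, 2, 4 and 5 held 527, 339, 506 and 597, a mean of 492 ± 109 (SD, n = 4). The populations did not overlap, as for 7.12% of all tested genes with the double positive libraries on top, and the lowest double positive library lay 4.68-fold above the highest single positive one. The ratio of the means was 16.3, and the difference on the log2(value + 1) scale was 4.39 (SE 0.47). This was the 50th largest increase among the 10127 genes that passed the filter on low values, between ENSDARG00000087353 at 4.40 and ENSDARG00000070622 at 4.38, neither of which carries a symbol. All changes are to be read against a median log2 difference of -0.16 over these genes, which was 0.12 after median centring, where f13a1b stood at 4.67, and -0.04 after quantile normalization. Scaled to the column total, f13a1b held 11.97 to 76.2 per 1000000 in the single positive libraries and 362 to 687 in the double positive ones.

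**Figure D1:**
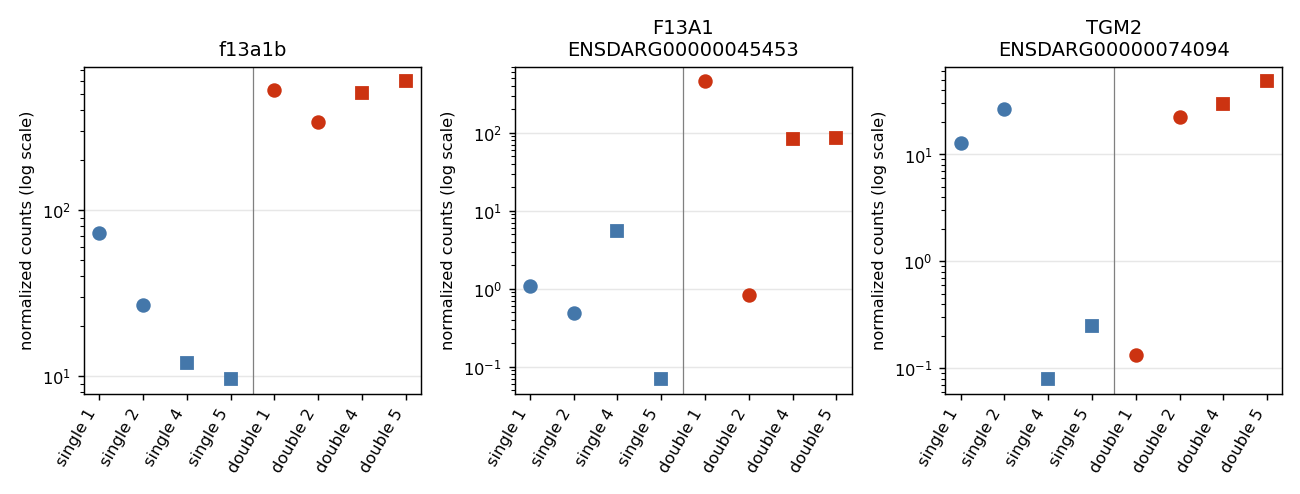
Normalized counts (log axis, a separate scale for each gene) of f13a1b, F13A1 (ENSDARG00000045453) and TGM2 (ENSDARG00000074094) in each library, with single positive libraries in blue, double positive libraries in red, circles for library batch 1 and squares for batch 2. The 4 double positive values of f13a1b, 339 to 597, sit above all single positive values, 9.61 to 72.5, while F13A1 and TGM2 each have a double positive library, 2 and 1, among the low values.

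Relative to the mean, the spread of f13a1b lay mainly among the single positive libraries. Their highest value was 7.54 times the lowest, against 1.76 times among the double positive libraries, and the coefficient of variation was 96.5% against 22.2%. The single positive libraries of batch 1 had a mean of 49.7 and those of batch 2 a mean of 10.8, while the double positive means were 433 and 551. The log2 difference between populations was therefore 3.23 in batch 1 and 5.55 in batch 2. These differ by 2.32 (SE 0.75), the interaction of population and batch, which is given with no test because the same values chose the gene. On average over populations f13a1b lay 0.78 higher in batch 1 than in batch 2 on the log2 scale.

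The table holds 2 further transglutaminases, and neither passed the test between populations, where 6.69% of all tested genes passed (limma, adjusted p under 0.05). F13A1 ENSDARG00000045453, a second gene for a factor XIII A subunit, had 1.09, 0.482, 5.57 and 0.0695 normalized counts in single positive libraries 1, 2, 4 and 5. In double positive libraries 1, 2, 4 and 5 it had 455, 0.827, 83.9 and 85.4. Double positive libraries 1, 4 and 5 lay far above every single positive library, and double positive library 2 lay among them, although that same library held 339 of f13a1b. The log2 difference of F13A1 was 4.52 (SE 1.44, limma adjusted p = 0.0738), and batch 1 gave 4.03 and batch 2 gave 5.01. This gene passed without double positive library 2 (log2 difference 6.21, adjusted p = 0.00236), with median centring (adjusted p = 0.00387), with quantile normalization (adjusted p = 0.0127), with a pseudocount of 5 (adjusted p = 0.0400), without a batch term (adjusted p = 0.0392) and in batch 2 alone (adjusted p = 0.0177). F13A1 did not pass when any other single library was left out (limma adjusted p up to 0.216). Nor did it pass without the mean-variance trend (adjusted p = 0.203). The sources used here do not state how reads that match both A subunit genes were assigned, so the split between them is uncertain. TGM2 ENSDARG00000074094, a gene for tissue transglutaminase, had 12.7, 26.5, 0.0795 and 0.249 in single positive libraries and 0.135, 22.3, 29.8 and 48.1 in double positive libraries 1, 2, 4 and 5. Its populations overlapped, and its log2 difference was 1.57 (SE 1.47, adjusted p = 0.623), from -1.92 in batch 1 to 5.07 in batch 2.

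None of the 5 coagulation genes selected by symbol passed the test in either direction (0 higher and 0 lower by limma), where 6.69% of all tested genes passed. At an unadjusted p under 0.05 there was 1, against 1932 of all 10127 tested genes. None of the 5 separated the populations, against 14.1% of all tested genes. These counts are all near the background. Of the initiating and amplifying factors, the tissue factor gene f3b had 23.9, 97.3, 0.386 and 14.2 normalized counts in single positive and 0.689, 71.9, 107 and 121 in double positive libraries. Its log2 difference was 1.24 (SE 1.34, adjusted p = 0.678). Double positive library 1 was the low value, and without it f3b passed, at 3.01 (adjusted p = 0.0207). The gene f5, for the cofactor of activated factor X, had 31.2, 9.79, 0.0577 and 1.26 in single positive and 18.1, 0.121, 12.9 and 43.5 in double positive libraries, a log2 difference of 0.998 (SE 1.43, adjusted p = 0.768). F10 ENSDARG00000088581, for the protease that makes thrombin, had 31.5, 20.3, 13.5 and 0.846 in single positive and 20.1, 5.84, 13.6 and 13.4 in double positive libraries, a log2 difference of 0.18 (SE 1.09, adjusted p = 0.963). The populations overlapped for each of these 3 genes. No F7 or PLAUR identifier was matched by symbol.

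Among the genes of fibrin breakdown, the urokinase gene plaua was present in all libraries, at 198, 101, 29.8 and 87.5 normalized counts in single positive and 239, 123, 186 and 226 in double positive ones. Single positive library 1 lay within the double positive range, and the log2 difference was 1.13 (SE 0.44, adjusted p = 0.163). With median centring plaua passed, at 1.41 (adjusted p = 0.0428). SERPINE2, for a serpin that inhibits thrombin and plasminogen activators, had 2.52 to 44.1 without eGFP and 0.730 to 22.0 with it, with a log2 difference of -0.41 (SE 1.26, adjusted p = 0.915).

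**Figure D2:**
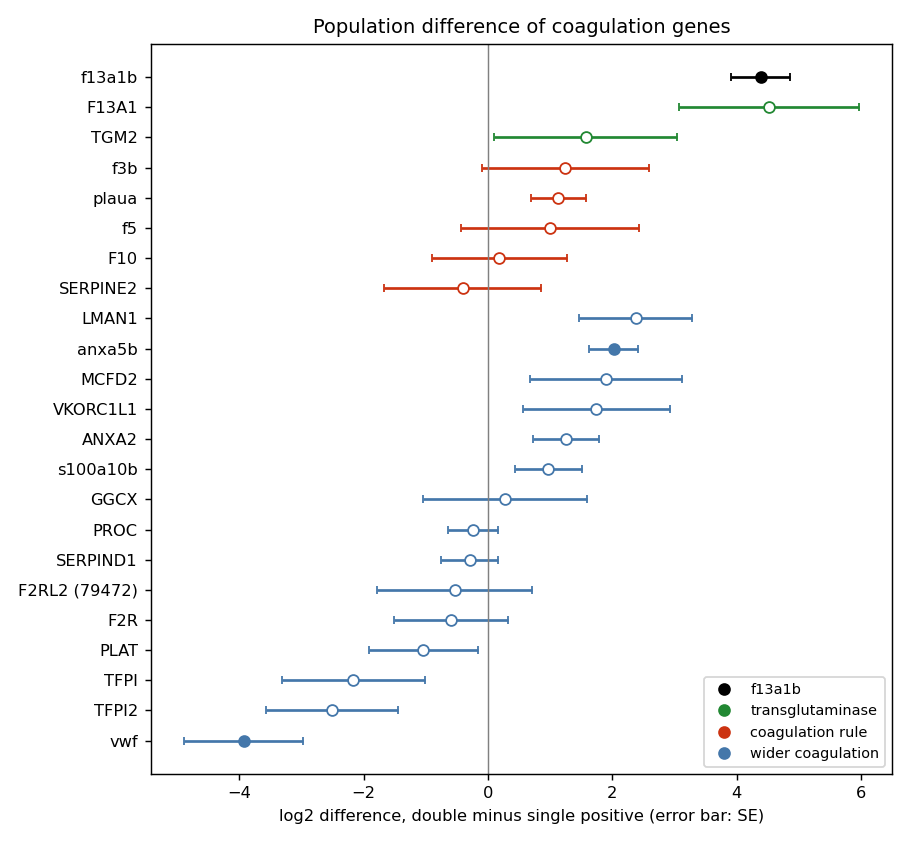
Log2 difference of double minus single positive libraries with its standard error for f13a1b (black), the other transglutaminases (green), the 5 coagulation genes selected by symbol (red) and 15 tested genes of a wider coagulation list (blue). Filled coloured points passed the limma test at an adjusted p under 0.05 (f13a1b, filled black, was not tested), and among the others only anxa5b at 2.02 and vwf at -3.93 are filled.

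A wider list of clotting and fibrin breakdown genes was matched by 16 identifiers, of which 15 were tested. The exception, F2RL2 ENSDARG00000090524, ran from 0.0261 to 12.9 normalized counts. Of the 15, 1 rose and 1 fell, against 3.88% higher and 2.81% lower over all tested genes, and the list's median log2 difference was -0.24. The gene that rose was anxa5b, for an annexin that covers phosphatidylserine, the membrane lipid on which clotting factors assemble. It had 62.6, 108, 27.9 and 43.8 in single positive and 221, 207, 180 and 289 in double positive libraries, a log2 difference of 2.02 (SE 0.39, limma adjusted p = 0.00418). The groups did not overlap, and anxa5b kept its call without any single library, but not without the mean-variance trend (adjusted p = 0.0834). The gene that fell was vwf, for von Willebrand factor, an adhesive protein made by endothelial cells and thrombocytes. It had 122, 129, 76.9 and 67.5 in single positive and 1.096, 43.3, 13.2 and 0.195 in double positive libraries, a log2 difference of -3.93 (SE 0.95, adjusted p = 0.0184). Leaving out any of the 4 single positive libraries, or double positive library 5, ended this call, with adjusted p-values up to 0.0850, as did a fit without the mean-variance trend (adjusted p = 0.117).

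The other tested members of this list did not pass. TFPI2, for a Kunitz-type inhibitor of plasmin and other proteases, had 2.99 to 16.6 normalized counts without eGFP and 0.158 to 2.195 with it, which do not overlap, with a log2 difference of -2.51 (SE 1.06, limma adjusted p = 0.199). TFPI, for the inhibitor of tissue factor, had a log2 difference of -2.17 (adjusted p = 0.329), and its values were 15.8 to 139 and 0.605 to 74.0. PLAT, for tissue plasminogen activator, had -1.04 (adjusted p = 0.572), PROC, for protein C, -0.24, and SERPIND1, for the thrombin inhibitor heparin cofactor II, -0.30. The thrombin receptor gene F2R had -0.60 and F2RL2 ENSDARG00000079472 -0.53. ANXA2 and s100a10b, whose products bind plasminogen and its activator at the cell surface, had 1.26 (adjusted p = 0.204) and 0.97 (adjusted p = 0.356). LMAN1 and MCFD2, whose products carry factors V and VIII out of the endoplasmic reticulum, had 2.38 (adjusted p = 0.150) and 1.90 (adjusted p = 0.440). For the vitamin K dependent modification of clotting factors, VKORC1L1 had 1.74 and GGCX 0.28, with adjusted p-values of 0.469 and 0.951.

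Of the 5 genes selected by symbol, f3b, f5, F10 and SERPINE2 had differences of opposite sign in the batches, and plaua did not. How often the sign differed over all tested genes was not counted, so this is a description of these genes only. Single libraries with very low values enter these differences. In batch 1, double positive library 1 held 0.689 of f3b and 0.730 of SERPINE2, and double positive library 2 held 0.121 of f5. In batch 2, single positive library 4 held 0.386 of f3b and 0.0577 of f5, and single positive library 5 held 0.846 of F10. Their part in the signs was not tested. The median log2 difference of the 5 genes was 0.998 in the whole fit, -1.13 within batch 1 and 1.98 within batch 2, beside -0.40 and 0.08 over all tested genes. For f3b it was -2.16 in batch 1 and 4.64 in batch 2, for f5 -2.01 and 4.01, and for F10 -1.13 and 1.49. The difference of f13a1b was above 0 in either batch, but the gene was chosen by these same levels, so its sign is no contrast to theirs. The differences of F13A1, anxa5b and plaua (0.28 and 1.98), among others, were also above 0 in either batch. The interaction of population and batch did not pass for any of the 5 genes (limma adjusted p from 0.359 to 0.914), and passed for 0.0987% of all tested genes.

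**Figure D3:**
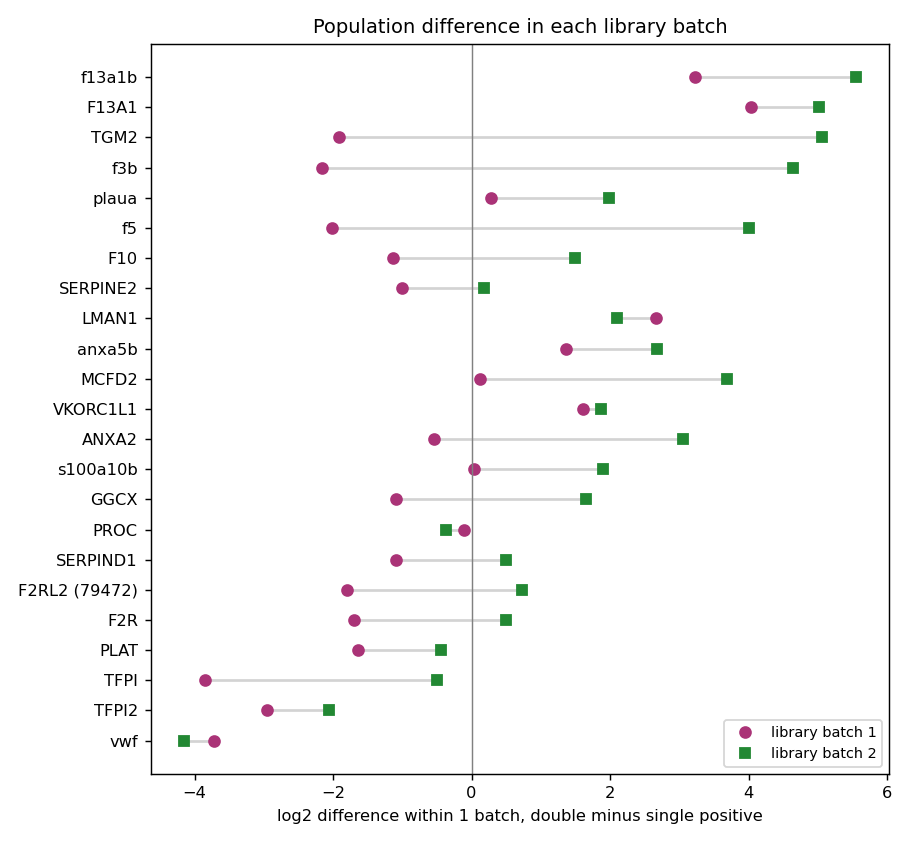
Log2 difference of double minus single positive libraries within library batch 1 (circles) and batch 2 (squares) for the genes of the plot of coagulation differences, 2 libraries per population in each batch. For f13a1b, which was chosen by these levels, both lie to the right of 0, at 3.23 and 5.55. Those of f3b, f5, F10 and TGM2 lie on either side of it.

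Genes for proteins that factor XIII cross-links in mammals were measured through 10 identifiers, of which 2 rose and 1 fell, against 3.88% higher and 2.81% lower over all tested genes. Those that rose were the fibronectin genes. FN1 ENSDARG00000006526 had 14.6, 54.0, 1.49 and 11.6 normalized counts in single positive and 176, 380, 776 and 655 in double positive libraries, a log2 difference of 5.07 (SE 0.71, limma adjusted p = 0.000481). FN1 ENSDARG00000019815 had 193, 392, 29.1 and 94.4 and then 249, 357, 1014 and 825, a log2 difference of 2.11 (SE 0.59, adjusted p = 0.0404). The second had 0.12 in batch 1 and 4.095 in batch 2, and its call ended when any of the 4 libraries of batch 2 was left out, where adjusted p rose to as much as 0.182, and without the trend (adjusted p = 0.299). The gene that fell was vwf. The collagen I genes col1a1a, COL1A1 and COL1A2 had log2 differences of 0.48, 0.49 and 0.43, with adjusted p-values of 0.827, 0.767 and 0.874. No fibrinogen gene or alpha2-antiplasmin gene was matched by symbol.

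A list drawn up for genes expressed with F13A1 in mammalian tissue macrophages is described through 14 identifiers, all tested. Of these, 8 rose while 0 fell, against 3.88% and 2.81% of all tested genes. Whether each member, havcr1 among them, is expressed with F13A1 in mammalian macrophages was not checked. This list was written with earlier results of the same libraries known and shares its 3 C1q genes and csf1rb with the macrophage marker list, so the count is a description. Its median log2 difference was 2.50, with 1.62 in batch 1 and 3.44 in batch 2. The mannose receptor gene mrc1b had 262, 136, 34.7 and 57.1 normalized counts in single positive and 583, 573, 668 and 1035 in double positive libraries, a log2 difference of 2.90 (SE 0.43, limma adjusted p = 0.000577). The difference of c1qb, for a chain of the complement initiator C1q, was 4.72 (SE 0.76). The others that rose, by 2.41 to 5.29, were havcr1, c1qa, c1qc, DAB2, mertka and selenop. The populations did not overlap in 9 of the 14 identifiers, with higher values in the double positive cells, against 7.12% of all tested genes. These 9 were the 8 that rose and havcr2, which did not pass (adjusted p = 0.120). The 8 were picked by passing the test, so their separation is a description only. The call of mertka ended without double positive library 4, double positive library 5 or single positive library 5, with adjusted p-values up to 0.169. Without the mean-variance trend havcr1 alone of the 8 passed (adjusted p = 0.0376). Members that did not pass included stab1, a scavenger receptor gene, at -1.68 (adjusted p = 0.481), ccr2 at -0.37 (adjusted p = 0.909) and csf1rb, a receptor gene for macrophage growth factor, at -1.23 (adjusted p = 0.150).

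Thrombocytes, the nucleated counterparts of platelets in fish, are another cell that could carry factor XIII transcripts. Their markers were matched by 7 identifiers, of which 0 rose and 0 fell (limma). At an unadjusted p under 0.05 there were 2, against 1932 of all 10127 tested genes. Since 6.69% of all tested genes passed, a count of 0 among 7 is near the background. The summed level of the 7 was 390 to 758 normalized counts without eGFP and 381 to 625 with it, and the ranges overlapped. Most of this sum was FERMT3 ENSDARG00000030938, at 220 to 606 without eGFP and 250 to 398 with it. The sum thus mainly describes 1 gene. GP1BB, for a subunit of the thrombocyte receptor of von Willebrand factor, had 0.0442 to 15.4 and 0.133 to 13.2, and its log2 difference was 0.26 (SE 1.05, adjusted p = 0.939). The 3 members with the smallest p were RASGRP2 at -3.21 (adjusted p = 0.0995), FERMT3 ENSDARG00000079267 at 0.99 (adjusted p = 0.194) and THBS1 at 1.61 (adjusted p = 0.4998). The defining genes itga2b, mpl and gp9 were not analysed here.

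Many macrophage and B lymphocyte markers differed between the populations. Macrophage markers were matched by 25 identifiers, of which 16 rose and 1 fell, where 3.88% of all tested genes rose and 2.81% fell, as for each list here, and their summed level was 3299 to 5532 without eGFP and 7551 to 13546 with it. Several of these identifiers are related genes, such as those named MFAP4, those named MPEG1 and the C1q genes, so they are not independent markers. The lists were chosen with earlier results of these data known, so the counts are a description. The smallest p of that list belonged to marco (log2 difference 5.56), MFAP4 ENSDARG00000090783 (5.88) and MPEG1 ENSDARG00000043093 (4.33). The gene that fell was IRF8, for a transcription factor of macrophage development, at -2.93 (limma adjusted p = 0.0432), a call kept when double positive library 1 or 2 was left out but ended when any other library was, and ended among other settings without the trend (adjusted p = 0.228). SPI1, HMOX1 and cd68 did not pass, at 0.25, 0.46 and 0.53. B lymphocyte markers were matched by 12 identifiers, of which 0 rose and 8 fell, and their sum was 1042 to 2510 without eGFP and 315 to 516 with it. The leading members were cd37 at -6.73, irf4b at -6.31 and CCR9 at -2.59. One member, cd22, lay the other way, at 0.156 to 5.13 normalized counts without eGFP and 10.9 to 48.8 with it, a log2 difference of 3.65 that did not pass (adjusted p = 0.0706), although it passed under other settings, among them the omission of double positive library 1 (adjusted p = 0.0190). Neutrophil markers were matched by 5 identifiers, of which 2 rose, NCF1 (1.01) and CSF3R (3.76), and NCF1 is also a macrophage gene. Neither kept its call without the mean-variance trend (limma adjusted p = 0.303 for NCF1 and 0.0598 for CSF3R). CSF3R lost its call when double positive library 4 or 5 was left out, at an adjusted p of 0.112 or less, while cxcr1 had 1.42 (adjusted p = 0.389). The sum of the neutrophil markers was 656 to 826 without eGFP and 1199 to 2067 with it. Most of this sum was NCF1, at 628 to 811 and 1069 to 1957.

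No epicardial or fibroblast marker passed among 10 identifiers (limma, 0 at an unadjusted p under 0.05), and their sum was 172 to 1361 without eGFP and 160 to 1570 with it. Over all tested genes 6.69% passed, so counts of 0 among 8 or 10 identifiers, here and below, are near the background. Of the epicardial or fibroblast markers, POSTN had a log2 difference of -2.44, COL12A1 ENSDARG00000078322 one of 1.61 and COL12A1 ENSDARG00000019601 one of 1.24. Of 8 endothelial identifiers none passed. An unadjusted p under 0.05 (limma) was found for 4 of the 8, a larger share than the 1932 of all 10127 tested genes. The endothelial median log2 difference was -2.26, beside -0.16 over all tested genes. The endothelial sums were 188 to 452 without eGFP and 92.7 to 220.4 with it, and cdh5, TIE1 and ESAM had -2.77, 1.27 and -2.83. Of 10 cardiomyocyte identifiers none passed (1 at an unadjusted p under 0.05), with sums of 35.7 to 278 and 33.5 to 211, and nppb, MYL7 and TTN ENSDARG00000028213 had -2.57, -1.50 and -1.61. Of the red cell list, gata1a was matched, at 0.05 (adjusted p = 0.990). The part of these cells in the level of f13a1b was not tested.

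Among the single positive libraries, f13a1b and the summed macrophage markers were both higher in batch 1. Libraries 1, 2, 4 and 5 had sums of 5532, 4697, 3299 and 3588, beside 72.5, 26.8, 12.02 and 9.61 of f13a1b, while the B lymphocyte sums were 1157, 1042, 2510 and 1596. Per 1000 normalized counts of the summed macrophage markers, f13a1b had 13.1, 5.70, 3.64 and 2.68 in these libraries. In double positive libraries 1, 2, 4 and 5 it had 69.8, 39.3, 37.3 and 52.7. Per 100 normalized counts of MPEG1 ENSDARG00000055290, which had a log2 difference of -0.42 (limma adjusted p = 0.496), f13a1b had 1.79 to 15.1 without eGFP and 86.1 to 315 with it. Per 100 normalized counts of MPEG1 ENSDARG00000043093 the populations overlapped, at 56.9 to 538 without eGFP and 84.2 to 276 with it, and so they did per 100 of marco, at 78.6 to 577 and 53.5 to 143, and of MFAP4 ENSDARG00000090783, at 61.7 to 632 and 41.5 to 122. For 13 of the 25 macrophage identifiers taken singly, the ratio of f13a1b to the marker was higher in every double positive library than in every single positive one. For the other 12, among them 10 of the 16 that rose, it was not. These 12 include any whose ratio overlapped and any whose ratio was lower in every double positive library. How often the ratio of f13a1b to other tested genes was higher in every double positive library was not counted, so these counts show nothing particular to macrophage markers. These ratios describe the levels that chose the gene, and the part of macrophage content in them was not tested.

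**Figure D4:**
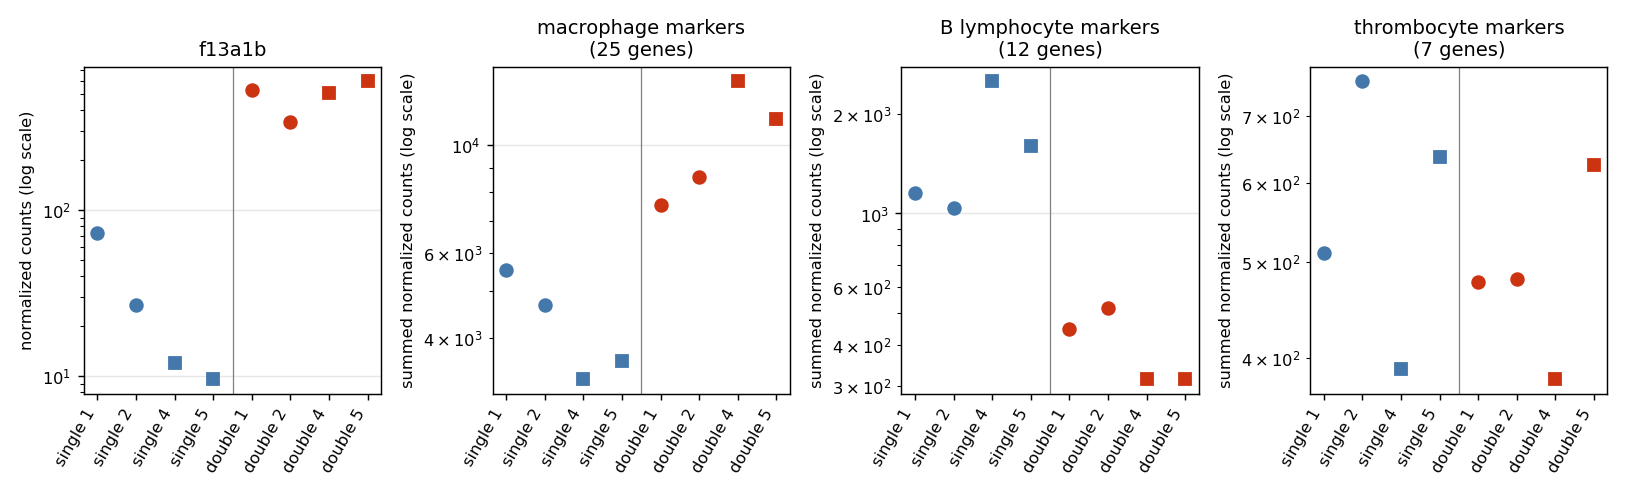
Normalized counts of f13a1b and summed normalized counts of macrophage, B lymphocyte and thrombocyte markers in each library (log axes, a separate scale for each panel), with single positive libraries in blue, double positive in red, circles for batch 1 and squares for batch 2. Double positive libraries lie above the single positive ones for f13a1b and the macrophage sum, below them for the B lymphocyte sum, and overlap them for the thrombocyte sum. Most of the thrombocyte sum is FERMT3 ENSDARG00000030938.

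The genes whose profile over the 8 libraries was closest to that of f13a1b were found by the root mean square difference of log2(value + 1), each gene centred on its own mean. Over the other 8245 tested genes with a symbol the median of this distance was 2.61. The 12 closest lay at 0.41 to 0.62, and were si:dkeyp-23e4.3 (0.41), c7b (0.50), MFAP4 ENSDARG00000038681 (0.51), PTGER2 (0.52), tnk1 (0.54), m17 (0.54), arl4cb (0.56), SLC16A9 (0.57), LRP1 (0.58), LTA4H (0.61), ppfibp2b (0.61) and tfa (0.62). The choice rests on the measure, since 3 of these 12 were among the closest 12 with a pseudocount of 5 and 3 by Pearson correlation. Among them c7b is a gene for a complement component of the membrane attack pathway, PTGER2 for a prostaglandin E2 receptor, LTA4H for an enzyme that makes leukotriene B4 and tfa for transferrin. LRP1 encodes an endocytic receptor that in mammals also clears complexes of plasminogen activators and their inhibitors.

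The gene LRP1 had 86.9, 69.0, 11.6 and 21.5 in single positive and 594, 713, 1581 and 1339 in double positive libraries. The complement gene c7b had 46.6, 14.1, 6.71 and 3.53 in single positive libraries 1, 2, 4 and 5, the same order as f13a1b, and 107, 134, 292 and 258 in double positive ones. These genes were chosen for their likeness over all 8 libraries, so features they share with f13a1b were fixed by the choice and were not tested.

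**Figure D5:**
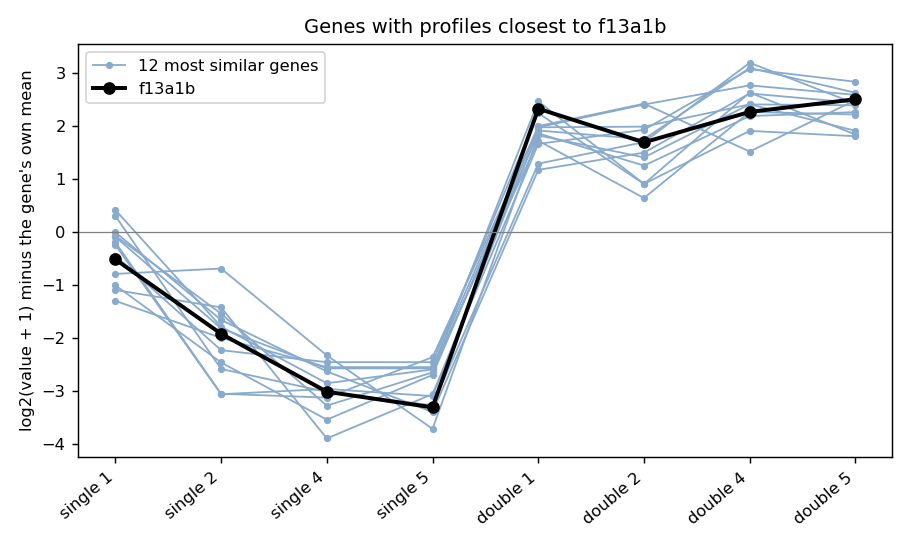
Profiles of f13a1b (black) and the 12 genes closest to it (blue) over the 8 libraries, as log2(value + 1) minus each gene's mean over the libraries. The line of f13a1b runs from -0.52 in single positive library 1 down to -3.31 in single positive library 5 and lies between 1.69 and 2.50 in the double positive libraries.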

How the data were processed

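RNA from 8 pools of sorted cells was sequenced. Per the labels' protocols, RNA was amplified from 1 ng and libraries were made in 2 batches. The submitters' processing notes name the tools CASAVA 1.8.2, RSEM 1.2.3 and cutadapt and the build Zv9, without their roles. The authors deposited a signal, named normalized counts, with no value at 0 and a lowest value of 0.0143, so low values may be products of the normalization. No source used here states how they were normalized or whether for batch. If they were adjusted for batch, standard errors may be too small. Read depth is unknown.

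Symbols came from a table that matched 8512 identifiers (81.2%). Values were taken to log2(value + 1), which understates the change of low genes. Genes were kept where 4 or more of the 8 libraries held at least 1 per 1000000 of their total. These 10127 genes were tested with limma 3.58.1 (R 4.3.3), with mean-variance trend and library batch as covariate (5 residual degrees of freedom), two-sided, adjusted by Benjamini-Hochberg over all of them and called under 0.05. The code was tested on simulated data.

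The members and lists were chosen with earlier results of these data known. Genes are named where they belong to the coagulation or transglutaminase lists, are among the 12 closest to f13a1b, are among the 3 smallest p of another list, or check the sort. Further members of the macrophage and B lymphocyte lists, the collagen genes and GP1BB were chosen after their values were seen. Replicates are separate pools of hearts per the labels. Alternatives were the pseudocount, the filter, the scaling, the trend, the covariates, each batch alone, and each library left out. Some members of the lists are not reported here and enter no count or median of a list.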

Additional observations from a re-analysis of the deposited data

Results flagged for a closer look

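Of 72 groups of 4 libraries examined on the log2(value + 1) scale (f13a1b, the transglutaminases, the coagulation genes and the 12 genes closest to f13a1b, in each population), 5 held a library far from the other 3. Chance alone flags about 1 in 20 groups. In double positive library 1, f3b had 0.689 normalized counts against 71.9 to 121 in the other 3. In double positive library 4, F2RL2 ENSDARG00000090524 had 5.15 against 0.143 to 0.507. In single positive library 5, TFPI2 had 2.99 against 13.3 to 16.6. In single positive library 1, tnk1 had 7.45 against 0.168 to 0.283, and m17 had 3.44 against 0.103 to 0.290. Both tnk1 and m17 were chosen for likeness to f13a1b over the same libraries. Of the 12 closest genes, 11 had single positive library 1 as the highest single positive one, so the chance rate does not hold for their groups. No group of f13a1b was among the 5.

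The population difference depended on library batch for LRP1, where batch 2 minus batch 1 was 3.38 on the log2 scale, and for c1qb, where it was 5.56 (limma interaction, adjusted p = 0.0116). For both genes the difference lay above 0 in either batch. LRP1 was chosen for its likeness to f13a1b over the same libraries, so its value is a description. The corresponding value of f13a1b was 2.32, with no test.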

How the results depend on the processing

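The log2 difference of f13a1b was 4.12 to 4.67 under the other pseudocounts, filters, scalings and covariates, 4.098 to 4.90 when 1 library was left out, and 3.23 and 5.55 in batches 1 and 2 alone. Its interaction with batch lay between 1.62 and 3.02 without 1 library. The causes of the changes given next were not tested. All tested genes gave 393 higher and 285 lower, but 124 higher without the mean-variance trend, 0 higher and 0 lower in batch 1 alone, 152 lower in batch 2 alone, and 542 and 220 with median centring. Without 1 library they ranged from 169 to 497 higher and from 101 to 308 lower.

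Same-numbered libraries of the 2 populations deviated from their population means in opposite directions (r across genes from -0.292 to -0.112). So did differently numbered libraries of the same batch, such as single positive library 4 and double positive library 5 (r = -0.255). These values therefore cannot show whether the numbers pair the libraries. With the number as a replicate block the difference of f13a1b stayed 4.39, with 297 genes higher and 176 lower, and the calls of the coagulation and transglutaminase lists numbered as before. These lists, with 0, 1 and 1, and 0 calls, moved as follows. The 5 genes selected by symbol had 1 higher with median centring (plaua) and in batch 2 alone (f3b), and 0 to 1 without 1 library. The wider list had 2 higher with median centring (ANXA2 added) and in batch 2 alone, where 0 were lower, 0 and 0 without the trend and in batch 1 alone, and 1 to 2 higher and 0 to 1 lower without 1 library. Among the other transglutaminases, 1 was higher (F13A1) with a pseudocount of 5, median centring, quantile normalization or no batch term, 2 in batch 2 alone, and 0 to 1 without 1 library.

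Genes that did not pass changed sign in single settings. With a pseudocount of 0.5 MPEG1 ENSDARG00000078569 had -0.047, and with 5 F10 had -0.025. PROC had 0.036 with median centring, and SERPINE2 had 0.20 and ccr2 0.10 with quantile normalization. In batch 1 alone f3b had -2.16, f5 -2.01, F10 -1.13, TGM2 -1.92, ANXA2 -0.54, GGCX -1.10, COL12A1 -1.64 (ENSDARG00000078322) and -3.34 (ENSDARG00000019601), col1a1a -2.17, COL1A2 -2.48, COL1A1 -1.80, GP1BB -1.28, SPI1 -0.39, HMOX1 -0.33, cd68 -0.35 and MPEG1 ENSDARG00000078569 -0.95. In batch 2 alone SERPINE2 had 0.18, SERPIND1 0.50, F2R 0.49, F2RL2 ENSDARG00000079472 0.73, gata1a -1.56, MYL7 0.036, TTN 0.50, stab1 0.93, ccr2 1.23 and MPEG1 ENSDARG00000055290 0.070. Without 1 library the differences ran from -0.13 to 3.01 for f3b, -1.04 to 0.45 for SERPINE2, -0.68 to 0.77 for F10, -1.15 to 0.016 for F2R, -0.45 to 1.55 for GGCX, -1.24 to 0.66 for F2RL2 ENSDARG00000079472, -1.01 to 0.81 for gata1a, -1.20 to 0.72 for ccr2, -0.63 to 1.44 for col1a1a, -0.44 to 1.76 for COL1A2, -0.12 to 1.33 for COL1A1, -0.65 to 1.29 for GP1BB and -0.88 to 0.72 for MPEG1 ENSDARG00000078569.

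Of the 12 genes closest to f13a1b, 3 were among the closest 12 with a pseudocount of 5 and 3 by Pearson correlation. Median centring cannot change this measure, because it takes the same amount from every gene of a library.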
